A study of Mus musculus with 7 samples.

Results

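The comparison set the day 3 and day 10 arrays of mouse plantaris muscle against the day 5, day 7 and day 14 arrays, in search of genes whose course had 2 peaks during regrowth. A gene was counted when its day 3 and day 10 values (d3, d10) both lay above, or both lay below, all of its d5, d7 and d14 values. This held for 2108 of 19938 genes, of which 1270 lay above and 838 lay below. These genes were chosen by the measured d3, d5, d7, d10 and d14 intensities that are described here, so their counts and heights are a description with no test.

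The plantaris is a calf muscle of mainly fast fibres that wastes when the hind limbs bear no weight and grows back when the animal walks again. The mice were male C57BL/6J animals of 5 months, kept in a 14:10 light and dark cycle, and the labels name no mutant allele and no drug. All groups had been through hind limb suspension for 2 weeks. The groups compared were d3 and d10, taken 3 and 10 days after the limbs were returned to load, and d5, d7 and d14, taken 5, 7 and 14 days after it. Day 0, the end of suspension and the control named in the labels, and day 1 took no part in the rule. Each of the 7 time points was 1 Affymetrix Mouse Gene 1.0 ST array, hybridised with RNA of the left plantaris pooled from 6 animals. A pool gives no spread between animals, so no difference below has a replicate check, and day and array cannot be told apart.

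A loaded muscle that has been at rest goes through an early phase of leukocyte entry, in which neutrophils come first and macrophages follow, and a phase in which resident and invading cells divide. Neutrophils build their granules while still in the bone marrow, in order, so that transcripts of granule proteins are typical of immature cells and sparse in mature ones. Dividing cells switch on replication enzymes and histones in S phase, and cyclins, kinases and spindle proteins in G2 and mitosis. Slow fibres use a set of myosin, troponin and calcium pump genes that differs from the set used by fast fibres, and load favours the slow set.

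Promoter sequences are shown for 6 genes that lay above by a wide margin, because the 2 programmes they belong to have well known promoter elements. The windows run from 250 bases before to 50 after the start of the gene, from RefSeq on GRCm38.p6, and read 5' to 3' along the gene's own strand. They lie at chr7:135716330-135716629 for Mki67, chr9:70421505-70421804 for Ccnb2, chr10:69352863-69353162 for Cdk1, chr13:21753863-21754162 for H2ac15 (all on the minus strand), chr9:110419558-110419857 for Ngp and chr9:111019042-111019341 for Ltf (both on the plus strand). Capitals mark matches to the motifs searched on both strands: CCAAT, the NF-Y box; TTTGAA and TTTAAA, forms of the cell cycle element called CHR; TTTCGCG and TTTGGCG, forms of the E2F site; and TTGCNNAA, the core of the C/EBP site. In the Ltf window a reverse CCAAT and a TTGCNNAA match overlap.
Mki67: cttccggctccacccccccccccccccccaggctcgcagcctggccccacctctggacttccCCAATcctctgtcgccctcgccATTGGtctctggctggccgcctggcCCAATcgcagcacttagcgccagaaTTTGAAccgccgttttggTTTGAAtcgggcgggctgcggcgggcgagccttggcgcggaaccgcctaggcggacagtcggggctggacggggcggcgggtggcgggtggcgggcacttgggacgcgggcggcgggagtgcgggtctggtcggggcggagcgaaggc
Ccnb2: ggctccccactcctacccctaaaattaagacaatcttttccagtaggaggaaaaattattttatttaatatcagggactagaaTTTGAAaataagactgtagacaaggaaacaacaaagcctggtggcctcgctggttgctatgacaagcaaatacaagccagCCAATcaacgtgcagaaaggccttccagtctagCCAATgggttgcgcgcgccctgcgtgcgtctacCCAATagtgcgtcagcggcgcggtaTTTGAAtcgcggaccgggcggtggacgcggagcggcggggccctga
Cdk1: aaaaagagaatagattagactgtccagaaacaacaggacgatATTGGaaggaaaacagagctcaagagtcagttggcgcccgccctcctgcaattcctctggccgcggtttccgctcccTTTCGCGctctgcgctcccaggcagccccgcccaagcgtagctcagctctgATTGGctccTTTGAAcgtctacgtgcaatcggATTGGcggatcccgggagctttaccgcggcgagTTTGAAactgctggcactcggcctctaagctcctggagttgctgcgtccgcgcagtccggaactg
H2ac15: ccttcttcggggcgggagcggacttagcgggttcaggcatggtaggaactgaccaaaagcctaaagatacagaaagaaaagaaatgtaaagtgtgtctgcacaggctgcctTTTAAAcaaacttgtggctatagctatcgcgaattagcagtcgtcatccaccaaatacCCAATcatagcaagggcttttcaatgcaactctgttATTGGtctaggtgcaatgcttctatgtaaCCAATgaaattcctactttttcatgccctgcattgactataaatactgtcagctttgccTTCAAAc
Ngp: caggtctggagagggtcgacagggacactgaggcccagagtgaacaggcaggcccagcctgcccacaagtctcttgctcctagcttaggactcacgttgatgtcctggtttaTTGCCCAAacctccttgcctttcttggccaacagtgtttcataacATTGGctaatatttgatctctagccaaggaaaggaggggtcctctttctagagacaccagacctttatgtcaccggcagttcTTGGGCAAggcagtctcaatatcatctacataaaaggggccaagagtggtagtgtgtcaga
Ltf: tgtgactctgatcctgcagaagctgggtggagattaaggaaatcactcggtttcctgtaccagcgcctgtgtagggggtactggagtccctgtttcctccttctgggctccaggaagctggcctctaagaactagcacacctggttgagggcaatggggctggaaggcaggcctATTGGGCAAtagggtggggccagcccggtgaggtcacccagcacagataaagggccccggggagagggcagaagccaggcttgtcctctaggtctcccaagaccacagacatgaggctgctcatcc

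Some of these motifs were more frequent in the promoters of the list that they are known for than in promoters at large. TTTGAA was found in 39 of the 53 measured mitosis genes with a window (73.6%), and in 19 of the 23 that were counted above (82.6%), against 18.1% of all 27025 windows. CCAAT stood in 39 of the 53 measured mitosis genes (73.6%) and in 82.6% of those counted above, against 37.9% of all windows. It stood in 13 of 16 measured replication histones (81.2%) and in 9 of the 10 counted above (90.0%). TTGCNNAA stood in 10 of 24 measured neutrophil granule genes (41.7%) and in 8 of the 13 counted above (61.5%), against 10.8% of all windows. TTGCNNAA was not particular to that list, since it also stood in 5 of 16 measured replication histones (31.2%). No slow fibre window of 13 held it. Over all 1004 counted-above genes with a window the shares were 39.0% for CCAAT, 16.4% for TTTGAA and 7.87% for TTGCNNAA. Of the E2F forms, TTTGGCG stood in 3.19% of them, against 1.59% of all windows, and TTTCGCG in 1.29%, against 0.844% of all windows. A match describes the letters of a window and does not show that a protein binds there.

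Most of the genes counted differed by very little. The margin, the log2 distance between the nearer of d3 and d10 and the nearest of d5, d7 and d14, had a median of 0.031 above and of -0.032 below. At the edge of the rule, Cast, the calpain inhibitor calpastatin, was counted above with intensities of 1364.9 and 1364.4 at d3 and d10 against 1312.8, 1364.2 and 1335.2 at d5, d7 and d14. Lcor was also just inside, with 591.4 and 606.4 against 560.4, 573.7 and 591.3. Asb13 with 1302.3 and 1311.3 against 1281.4, 1294.7 and 1302.4, and Fbln2 with 744.3 and 702.8 against 664.2, 702.9 and 692.3, were just outside. On the other side Pdk4 was just inside, with 6683.1 and 6928.4 against 7031.4, 7609.0 and 6928.8, as was Capzb, with 4495.3 and 4456.5 against 4495.6, 4594.8 and 4678.1. Klhl30, with 620.7 and 644.4 against 644.3, 644.3 and 644.3, and Pex7, with 311.8 and 312.3 against 344.7, 312.2 and 316.3, were just outside. A further 1778 genes had an exact tie at the upper edge and 2370 at the lower, and ties were not counted.

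The background of the rule was 6.37% of genes above and 4.2% below. Single arrays went beyond the other 3 far more often. The d3 array alone lay above them for 19.5% of genes and below for 16.6%, and the d10 array alone lay above for 26.9% and below for 30.0%. Among the 12102 genes whose value reached the array's own median on at least 1 array, here called the filter, 1072 (8.86%) lay above and 342 (2.83%) below. The filter left out 198 genes above and 496 below, and 23 of the genes above passed it only through d3 or d10. With quantile normalization of the 7 arrays the split turned round, to 1316 above and 2295 below, and with equal array medians it was 1738 above and 1815 below, so no excess of one direction is read from the whole set.

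With both d3 and d10 required, wide margins occurred above and not below. At a margin of at least 1.2-fold, 33 genes past the filter lay above (0.273%) and none lay below (0.0%). At 1.1-fold there were 83 above and 5 below, at 1.5-fold 9 above, and at 2-fold 1 above. Of the 33, 3 passed the filter only through d3 or d10, namely Ly6g, Trem3 and Cdk1. Quantile normalization kept 30 of the 33 and added none. With d10 alone (without d3) 229 genes lay above and 231 below at 1.2-fold. With d3 alone (without d10) 102 lay above and 39 below, so more genes still lay above. An absence of genes below was seen with neither peak alone, but a rule with a single peak array is easier to pass. Without the d5 array 70 lay above and 0 below.

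**Figure D1:**
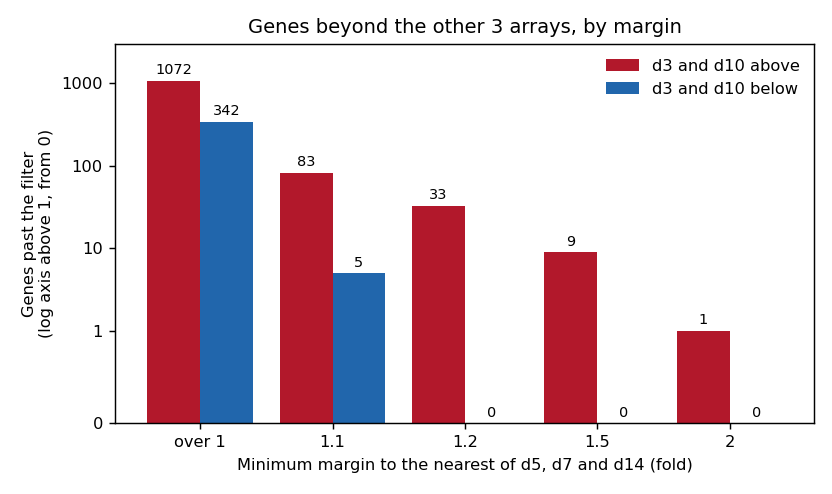
Number of genes past the filter (vertical axis, log-spaced above 1) whose d3 and d10 values both lay above (red) or below (blue) d5, d7 and d14 by at least the fold given on the horizontal axis. The bars above fall to 33 at 1.2-fold and to 1 at 2-fold, and no gene lies below at 1.2-fold or more.

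Of the 33 wide-margin genes, 25 fell in 7 lists. These were 9 neutrophil granule genes, 5 mitosis genes, 1 DNA replication gene, 2 replication histones, 3 slow fibre genes, 3 macrophage genes and 2 red cell genes. Among them the granule list genes Ly6g and Trem3 and the mitosis gene Cdk1 passed the filter only through d3 or d10. In 26 of the 33 the d10 value was the higher of the pair, and in 7 it was d3. The d10 array also had the highest upper quartile of intensity of the 5 arrays compared, at 361.2, against 342.0 on the d3 array and 341.1 to 348.2 on the d5, d7 and d14 arrays, and the part of this in the d10 heights was not tested. All 16 defining skeletal muscle genes passed the filter, though these genes do not tell the plantaris from other muscles. Acta1, skeletal actin, had intensities of 20438.5 and 21179.8 at d3 and d10 against 21002.9, 20540.7 and 20836.1 at d5, d7 and d14.

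Neutrophil granule genes made up the largest group of wide-margin genes, 9 of the 33. Of 28 measured, 14 lay above and 0 below, and the median difference between the mean of d3 and d10 and the mean of d5, d7 and d14 was 0.649 on the log2 scale, against -0.004 over all genes. Ngp, a granule protein of the cystatin family, had intensities of 1081.1 at d3 and 2205.1 at d10, against 368.7, 401.0 and 308.8 at d5, d7 and d14. Its margin of 1.43 (2.696-fold) was the widest of any gene, and even its lower peak was more than any other day, with 577.1 at d1 and 200.1 at d0. Lcn2, the iron-scavenging lipocalin of specific granules, had 1446.5 and 2851.5 at d3 and d10, against 574.7, 847.2 and 502.1 at d5, d7 and d14. S100a8 and S100a9, also in the list, form calprotectin, which is the main soluble protein of neutrophil cytoplasm and not a granule protein. S100a8 had 291.7 and 811.8 against 136.2, 189.8 and 147.4, and S100a9 had 340.8 and 827.4 against 218.1, 224.4 and 163.8. In both, d10 was far above d3, and d3 was in turn above the 3 other days.

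Genes of other granule proteins, and of surface proteins held in the same list, followed the same order of days. Camp, the antimicrobial cathelicidin, had 276.8 and 460.9 at d3 and d10, against 160.3, 185.4 and 151.5 at d5, d7 and d14. Ltf, lactoferrin, whose promoter is printed above, had 189.8 and 462.7 against 123.8, 143.5 and 117.8. Ly6g, the surface antigen used to mark mouse neutrophils, had 160.4 and 261.5 against 91.9, 95.3 and 73.1. Pglyrp1, a peptidoglycan-binding granule protein, had 222.7 and 444.3 against 152.2, 167.8 and 146.9, and the receptor gene Trem3 had 126.0 and 220.6 against 90.5, 92.0 and 78.6. Every one of these was highest at d10 and next highest at d3 over the 7 days. The median of the list was 0.22 above the mean of d5, d7 and d14 at d3 and 1.115 above it at d10.

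Elane and Mpo, whose proteins fill the primary granules that form earlier in neutrophil development, were high at d10 but not at d3. Mpo, myeloperoxidase, had 165.4 and 506.3 at d3 and d10 against 129.1, 216.9 and 157.1 at d5, d7 and d14, so that d7 lay above d3, and it had 321.6 at d1. Elane, neutrophil elastase, had 278.8 and 622.0 against 195.9, 327.2 and 199.6, with 389.5 at d1. Neither was counted. Of 10 genes typical of mature neutrophils only 1 passed the filter, so most were too dim for their course to be read. The 1 counted above (10.0%, against 6.37% of all genes) did not pass it. Csf3r, the G-CSF receptor and the 1 that passed, had 98.1 and 139.6 at d3 and d10 against 77.6, 113.0 and 98.1 at d5, d7 and d14. It was not counted, since d7 lay above d3. Mpo, Elane and Csf3r are named outside the naming rule, after their values were seen.

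**Figure D2:**
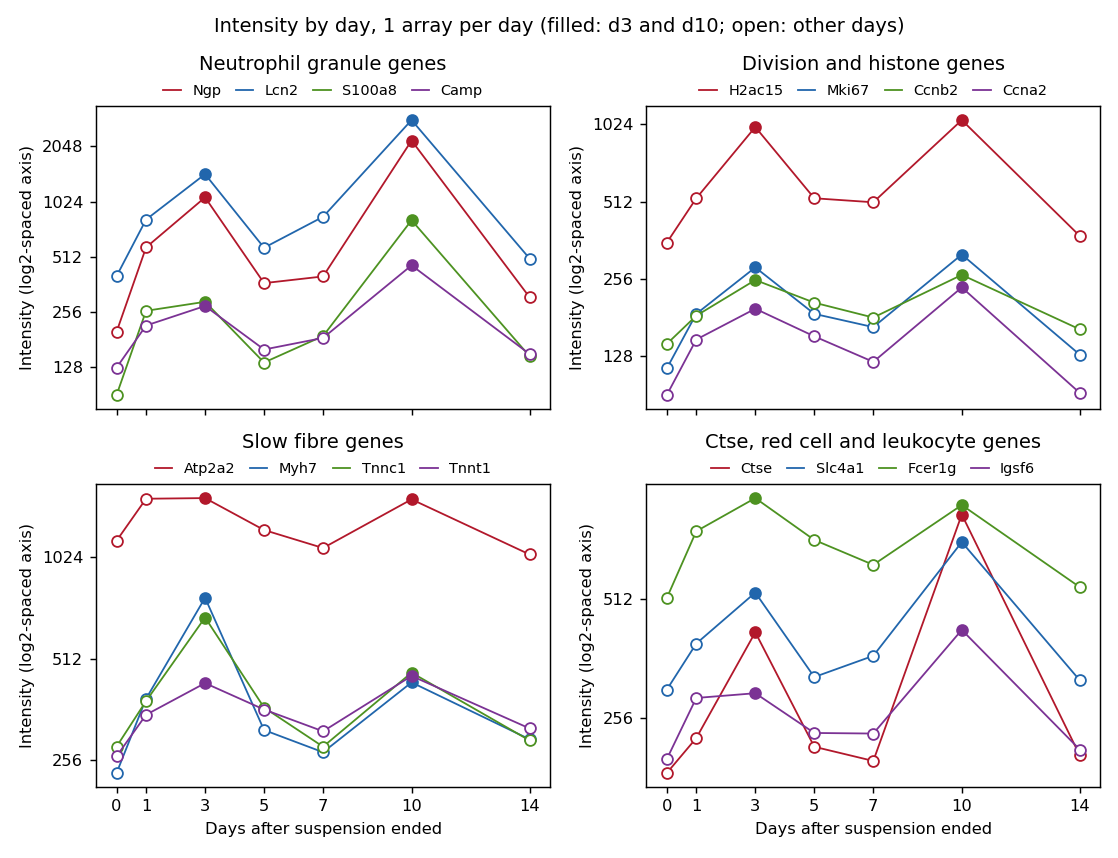
Intensity (log2-spaced vertical axis) by days after suspension ended, 1 array per day with no error bars, for 4 neutrophil granule genes, 4 division and histone genes, 4 slow fibre genes, and Ctse with 3 red cell or leukocyte genes. Filled points are d3 and d10, which lie above the open points of d5, d7 and d14 in every line, with d10 the higher in the granule panel and d3 the higher for Myh7 and Tnnc1.

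Single markers of eosinophils and of bone were high at d10 together with the granule genes, while most members of their lists were not counted. The summed intensity of the granule list was 8225.7 and 14156.9 at d3 and d10, against 4716.9 to 5834.0 at d5, d7 and d14. That of 8 eosinophil genes was 857.4 and 1666.8 against 748.0 to 852.3, with 2 of 8 above (25.0%). Ear6, an eosinophil ribonuclease, had 151.0 and 631.9 against 116.7, 135.0 and 90.6, and Prg2, the eosinophil major basic protein, had 164.6 and 447.4 against 114.2, 144.7 and 127.8. Among 10 bone forming genes 1 lay above (10.0%): Ibsp, bone sialoprotein, with 76.0 and 314.1 against 63.9, 69.8 and 65.4. In these 3 genes the d3 value was close to the other days and the d10 value stood alone. The list medians at d10, as log2 heights over the mean of d5, d7 and d14, were 0.148 for eosinophil genes and 0.012 for bone forming genes, against 1.115 for granule genes.

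Among 15 osteoclast genes 4 lay above (26.7%). Acp5, the tartrate-resistant acid phosphatase, had 234.3 and 362.6 at d3 and d10 against 227.3, 229.2 and 214.0 at d5, d7 and d14, and Ctsk, cathepsin K, had 216.0 and 306.2 against 194.4, 180.9 and 202.0. The summed intensity was 3646.4 and 4285.0 for the osteoclast list against 3525.8 to 3649.7, and 1342.7 and 1659.2 for the bone forming list against 1284.1 to 1390.6. Ibsp alone made up most of the d10 excess of the bone forming list, and the median d10 height was 0.043 for osteoclast genes and 0.03 for B cell genes. Of 17 B cell genes 4 lay above (23.5%), while the difference was negative in 6. The 3 that also passed the filter were Cd79b, Vpreb3 and Ebf1. Cd79b had 235.5 and 276.9 against 183.7, 220.3 and 220.8, and Vpreb3 had 153.7 and 129.6 against 114.4, 123.0 and 123.0. Ebf1 had 756.9 and 850.3 against 713.0, 730.0 and 740.4. Of the T and NK cell genes 0 of 16 and of the mast cell genes 0 of 10 were counted in either direction. No defining marker of these lists was at 0 on any array, since the minimum over each array's rows was between 5.2 and 5.8. That minimum holds for every row, so it does not show that a marker was expressed. The part of marrow or bone cells in the granule result was not tested. In a bulk sample more cells of a type and more RNA per cell cannot be told apart, nor can fewer cells and less RNA per cell.

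Red cell genes lay above in 8 of 16, with 0 below and a median difference of 0.139. Slc4a1, the band 3 anion exchanger of the red cell membrane, had 532.9 and 716.6 at d3 and d10 against 324.8, 367.8 and 318.6 at d5, d7 and d14. Car2, carbonic anhydrase II, which osteoclasts also use, had 409.2 and 559.3 against 336.0, 327.8 and 338.4, and Car1 had 225.7 and 395.4 against 172.2, 201.2 and 198.6. These 3 genes were higher at d10 than at d3. Alas2, the erythroid enzyme of haem synthesis, had 1323.6 and 1316.4 against 887.4, 1266.1 and 1408.3 and was not counted, so d14 lay above both peaks. The summed intensity of the list was 7008.6 and 7393.1 against 6024.4 to 6420.5.

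Cell division genes were high on both days by about the same amount. Of 62 mitosis genes 27 lay above (43.5%) and 0 below, and the median of the list was 0.131 above the mean of d5, d7 and d14 at d3 and 0.143 above it at d10. Mki67, the proliferation marker Ki-67, had 283.9 and 318.7 at d3 and d10 against 187.1, 166.1 and 129.7 at d5, d7 and d14. Ccna2, cyclin A2, had 195.9 and 237.2 against 152.9, 121.6 and 92.0, and Ccnb2, cyclin B2, had 253.5 and 265.5 against 206.9, 181.0 and 162.8. Cdk1, the kinase that these cyclins activate, had 128.1 and 131.6 against 103.9, 103.9 and 92.5. Mad2l1, of the spindle checkpoint and named after its value was seen, had 234.6 and 270.7 against 194.4, 169.0 and 170.9.

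In Mki67, Ccna2 and Ccnb2, d14 was the lowest of the 5 days and d0 lower still, at 114.6, 90.3 and 142.8 for Mki67, Ccna2 and Ccnb2 in that order. Most mitosis genes were dim, with 21 of 62 past the filter. Among the dim ones, also named after their values were seen, Kif11, the spindle motor Eg5, had 103.7 and 119.1 at d3 and d10 against 77.0, 80.0 and 73.5 at d5, d7 and d14. Top2a, the topoisomerase that untangles chromosomes, had 84.3 and 108.2 against 73.0, 69.1 and 68.3. The summed intensity of the list was 7748.5 and 8067.7 against 6482.2 to 6896.0.

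Of 50 genes of the replication machinery 11 lay above (22.0%) and 1 below, with a median difference of 0.059. Rrm2, the inducible subunit of ribonucleotide reductase, had 158.4 and 142.4 at d3 and d10 against 112.2, 108.1 and 109.9 at d5, d7 and d14, and 172.9 at d1. Mcm4, of the replicative helicase, had 154.9 and 174.3 against 128.6, 117.0 and 136.0, with 184.9 at d1. Pcna, the sliding clamp, had 763.0 and 729.4 against 679.3, 652.9 and 672.3, with 1014.5 at d1. At d0 Rrm2 had 90.5, Mcm4 had 145.0 and Pcna had 933.2, so Pcna at d0 already lay above its d3 and d10 values. These 3 replication genes were highest at d1, before either peak, whereas Mki67 and the cyclins Ccna2 and Ccnb2 had d1 values below d3.

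Replication histones had the highest share of any list, with 11 of 18 above (61.1%) and 0 below. H2ac15, a core histone H2A gene, had 1001.1 and 1065.6 at d3 and d10 against 528.1, 509.4 and 376.4 at d5, d7 and d14, a margin of 0.923. H2bc14, an H2B gene, had 606.0 and 639.8 against 488.1, 458.5 and 407.1, and H4c14, an H4 gene, had 1394.0 and 1438.5 against 1265.2, 1186.4 and 1175.0. H2aw, another H2A gene and outside the list, had 900.1 and 944.6 against 728.3, 694.5 and 711.2. In each of these 4 genes d3 and d10 were close to each other and apart from the other 3 days. Histone genes are near-identical copies, so a row named for one copy may hold signal of others.

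**Figure D3:**
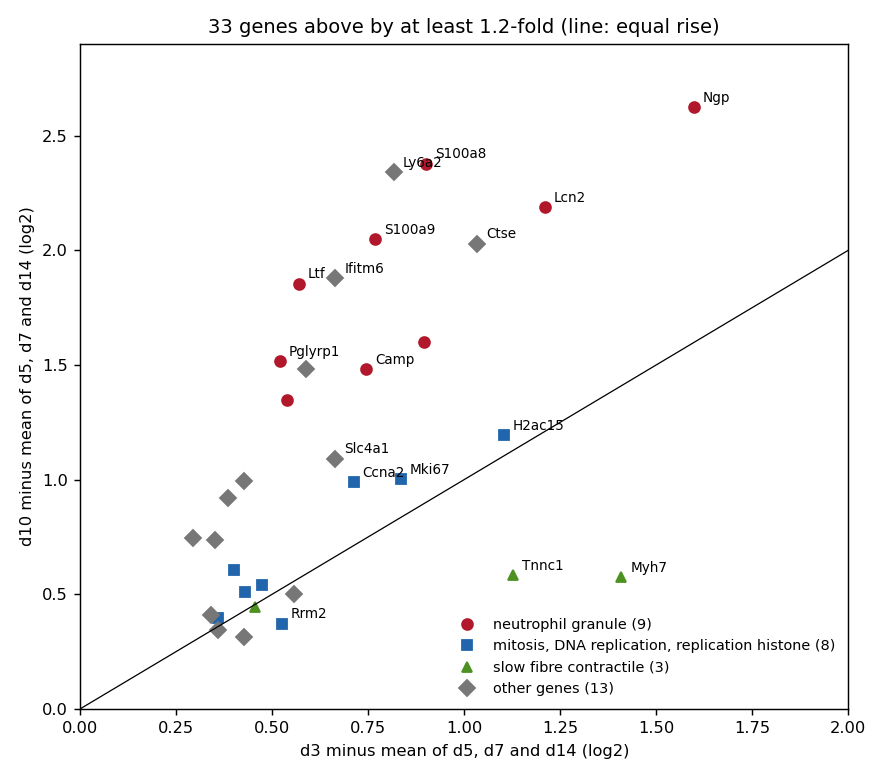
Log2 height of d3 (horizontal axis) and of d10 (vertical axis) over the mean of d5, d7 and d14 for the 33 genes above by at least 1.2-fold, 1 point per gene, with a line at equal height. The 9 neutrophil granule genes lie above the line, the 8 division and histone genes lie closer to it, and Myh7 and Tnnc1 lie below it.

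Slow fibre genes had the higher peak at d3. Of 15 measured, 7 lay above (46.7%) and 0 below, the median height was 0.358 at d3 and 0.189 at d10, and d3 was higher than d10 in 11 genes and lower in 3. Without the d14 array, the median difference of the list was 0.145, against 0.273 with it. Myh7, the slow myosin heavy chain, had 775.7 and 434.9 at d3 and d10 against 313.9, 269.7 and 294.6 at d5, d7 and d14. Tnnc1, slow troponin C, had 677.9 and 464.9 against 366.1, 280.1 and 292.3. Atp2a2, the SERCA2 calcium pump of slow fibres, had 1534.6 and 1521.3 against 1233.5, 1090.6 and 1043.6, and its d1 value of 1527.8 was at the same height. Tnnt1, slow troponin T, had 432.7 and 454.5 against 361.2, 311.2 and 317.4, and so was slightly higher at d10.

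Not all slow genes had 2 peaks. Myl2, the slow regulatory light chain, had 1289.0 and 1623.7 at d3 and d10 against 1424.3, 1223.8 and 1073.9 at d5, d7 and d14, with 559.3 at d0, and so d5 lay above d3. Casq2, the slow and cardiac calsequestrin, had 706.5 and 452.0 against 624.0, 452.0 and 354.4, a single high stretch at d3 and d5. Both are named after their values were seen. Of the 18 fast fibre genes 0 were counted in either direction, and all 18 were higher at d10 than at d3. Among defining muscle genes Myh2, the IIa myosin, lay above by a margin of 0.059, with 11864.8 and 11738.8 against 10885.3, 11270.0 and 10895.9.

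Macrophage genes lay above in 6 of 25 (24.0%), with 0 below and a median difference of 0.157. Fcer1g, the signalling chain of Fc receptors, had 927.4 and 890.4 at d3 and d10 against 725.5, 627.1 and 550.2 at d5, d7 and d14. Laptm5, a lysosomal protein of blood cells, had 594.8 and 549.7 against 433.7, 448.8 and 445.3. Lgals3, galectin-3, had 334.5 and 330.9 against 274.2, 272.1 and 238.1, but was highest at d1, with 467.9, and had 297.9 at d0. Unlike the granule genes, these 3 had d3 as high as d10 or slightly higher. Cd68, the macrophage lysosomal glycoprotein, had 1068.2 and 431.1 against 713.6, 305.9 and 253.0 with 1345.5 at d1, and was not counted, since d5 lay above d10. The summed intensity of the list was 10436.8 and 9272.0 against 7636.3 to 9364.1, so d5 exceeded d10, and it was 10616.9 at d1.

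Several wide-margin genes belonged to no list. Ctse, cathepsin E, an intracellular aspartic protease, had 422.3 and 842.2 at d3 and d10 against 215.8, 198.6 and 205.1 at d5, d7 and d14, the margin of 0.969 being next after that of Ngp. Ifitm6, of the interferon-induced transmembrane family, had 199.6 and 462.7 against 129.4, 148.2 and 104.2, and Ly6a2, of the Ly6 family, had 252.5 and 726.9 against 155.9, 166.0 and 114.0. Igsf6, an immunoglobulin superfamily receptor of myeloid cells, had 295.4 and 428.2 against 234.0, 233.2 and 212.3. Rac2, the blood cell GTPase of the neutrophil oxidase, had 389.8 and 508.6 against 280.0, 322.4 and 315.9, and Pilra, an inhibitory receptor of myeloid cells, had 166.1 and 246.3 against 122.1, 137.0 and 113.0. All 6 were higher at d10 than at d3, as the granule genes were. The clone F630028O10Rik had 232.1 and 431.6 against 164.2, 151.1 and 148.4, and it, Rac2, Pilra and H2aw are named only because they complete the 33.

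Endothelial, interferon, load and matrix genes had no wide-margin member. Endothelial genes lay above in 5 of 20 (25.0%), with Tie1, a receptor kinase of vessels, at 398.8 and 374.5 against 315.7, 343.9 and 348.8, and this count was 2 of 20 after quantile normalization. Interferon-stimulated genes lay above in 5 of 20 (25.0%), with Ifit1, an antiviral RNA sensor, at 166.7 and 158.5 against 144.2, 135.0 and 114.6. Stretch and load genes lay above in 3 of 24 (12.5%), and in 6 of 24 with equal array medians. Among them Ccn2, connective tissue growth factor, had 1932.4 and 1805.3 at d3 and d10 against 1405.5, 1640.5 and 1662.2 at d5, d7 and d14. Of 47 matrix genes 7 lay above (14.9%) and 1 below, among them Tnc, tenascin C, with 379.0 and 294.3 against 275.7, 221.2 and 226.3, and Fn1, fibronectin, with 1975.8 and 2558.4 against 1839.8, 1826.9 and 1698.7. Tnc was higher at d3 and Fn1 at d10. Basement membrane genes were counted in 0 of 18 in either direction. After quantile normalization 5 of 18 (27.8%) were counted below, against 11.5% of all genes.

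**Figure D4:**
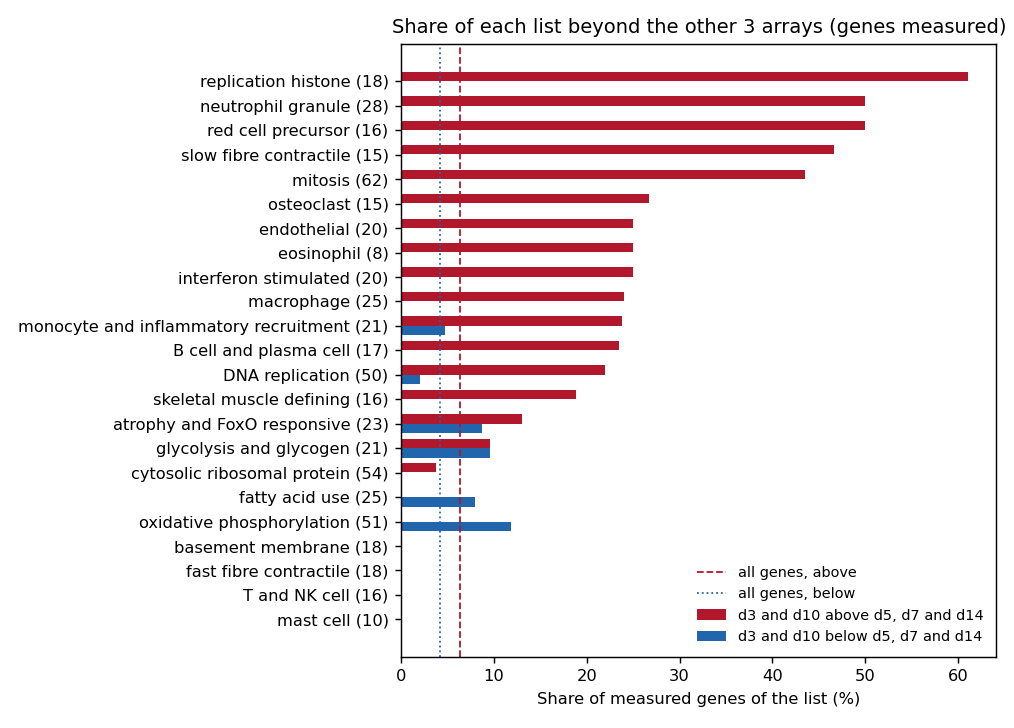
Share of each list's measured genes (horizontal axis, percent) with d3 and d10 above (red) or below (blue) d5, d7 and d14, for 23 lists with the number measured in brackets. Lines mark the shares over all genes, 6.37% above and 4.2% below. Replication histones reach 61.1%, and oxidative phosphorylation has only genes below.

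The genes below had small margins, the widest being 0.18 on the log2 scale. Dupd1, a dual specificity phosphatase of muscle, had intensities of 282.4 and 281.5 at d3 and d10 against 327.3, 339.2 and 321.0 at d5, d7 and d14. Tmem52 had 423.5 and 427.3 against 505.3, 531.8 and 474.0, and Snhg15, a non-coding host gene of a small nucleolar RNA, had 294.7 and 307.9 against 348.3, 341.4 and 374.3. Tnfsf11, the osteoclast growth signal RANKL, had 255.3 and 235.6 against 281.2, 317.2 and 273.2. In these 4 genes the groups did not overlap, as the rule requires, but no margin reached 1.2-fold. The other genes among the 15 with the widest margins below were Ccdc166, Niban3, Kcnk15, Ifna14, Siah3, Camk2n2, Ift27, Ndufb7, Gna14, Adam19 and Sra1, with folds of 1.069 for Sra1 to 1.113 for Ccdc166. The genes below were dimmer, with a median intensity over d0 and d1 of 89.0, against 300.2 for the genes above and 155.6 for all genes. Predicted genes, receptors of smell and taste, and small RNAs made up 23.6% of them, against 5.83% of the genes above and 14.7% of all genes.

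Oxidative phosphorylation genes were counted below in 6 of 51 (11.8%), against 4.2% of all genes, and above in 0. After quantile normalization 9 of 51 (17.6%) were below, against 11.5% of all genes. With equal array medians 4 of 51 (7.84%) were below, less than the 9.1% of all genes. Ndufb7, a subunit of complex I, had 779.3 and 857.2 at d3 and d10 against 987.4, 1012.1 and 920.1 at d5, d7 and d14. Sdhb, the iron-sulfur subunit of complex II, had 2921.1 and 3281.4 against 3379.5, 3458.2 and 3428.8. Both were lower at d3 than at d10, and so were 50 of the 51 genes of the list. The median lay 0.148 below the mean of d5, d7 and d14 at d3 (-0.148) but 0.023 above it at d10, so the median was low at d3 and not at d10. Fatty acid use genes had the same shape, with a median of -0.176 at d3 and 0.079 at d10. As reported, 2 of 25 were counted below (8.0%), against 4.2% of all genes. Quantile normalization gave 3 of 25 below, a share close to the 11.5% of all genes. With equal array medians 1 of 25 was below, a smaller share than the 9.1% of all genes. Among the 2 as reported was Ucp3, a mitochondrial carrier of muscle, with 822.3 and 794.0 against 907.3, 1065.5 and 868.6.

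The d0 and d1 arrays, which the rule did not use, showed where the genes stood before the first peak. The d1 value already lay above all of d5, d7 and d14 for 827 of the 1270 genes above (65.1%), against 27.7% of all genes. It did so for 24 of the 33 wide-margin genes (72.7%), and the median of d1 over the mean of d5, d7 and d14 was 0.239 there, against -0.005 over all genes. Over the 12102 genes past the filter, from which the 33 were taken, the share was 38.7% and the median 0.017. Among the 838 genes below, d1 lay below all of d5, d7 and d14 for 478 (57.0%), against 25.4% of all genes. At d0, 24 of the 33 wide-margin genes lay below all of d5, d7 and d14 (72.7%), 8 within their range and 1 above. The share below at d0 was 42.9% of all genes and 49.7% of genes past the filter. The d5, d7 and d14 arrays enter both the rule and these shares, so low values on those arrays raise both.

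**Figure D5:**
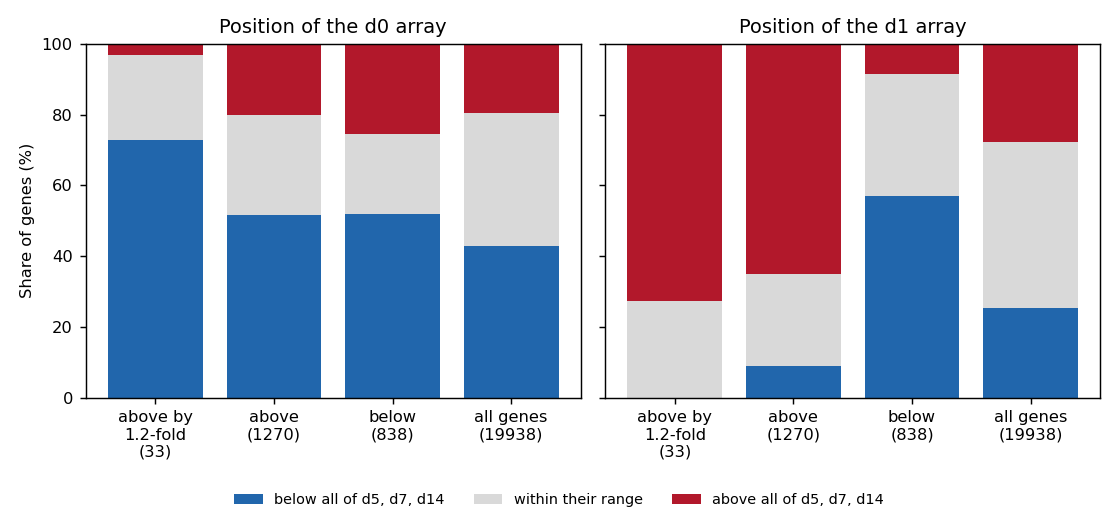
Share of genes (vertical axis, percent) whose d0 (left) or d1 (right) value lay above, within or below the range of d5, d7 and d14, for the wide-margin genes, the genes above, the genes below and all genes. At d1, 72.7% of the wide-margin genes lie above the range, and at d0 the same share lies below it.

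Second rows of the same genes gave a further look at the pattern within the same arrays. Of the genes above, 67 had other single-symbol rows, and 31 of these 102 rows (30.4%) also met the rule above and 1 below, against 5.24% of the 1851 other rows of all genes above. Of the genes below, 33 had 44 other rows, of which 8 (18.2%) also lay below and 2 above, against 3.4% of all other rows below. None of the 33 wide-margin genes had another row. Rows of a gene share the array and the RNA pool, and can share probes, so they are no replicate.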

How the data were processed

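Total RNA came from a Trizol extraction and carried a biotin label, per the labels. The input per array was 100 ng in the series' design text but 250 ng in the labels, a difference the sources leave unresolved. The authors deposited linear intensities, 1 for each row on each array, and these had been normalized between arrays. The submitters' processing notes mention Partek, with no version or step. The genome build, like the methods of background correction and normalization, was not given in the sources used here. Of 35556 rows, 23410 were annotated and 21789 had a single gene symbol, of which 21698 matched a RefSeq entry by Entrez ID. For the 999 genes with several rows, the row with the highest mean stood for the gene, leaving 19938 genes.

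Values were converted to log2 (pseudocount 0; Python 3.11.15, numpy 2.4.6, pandas 2.3.3, matplotlib 3.10.9). The 1.2-fold margin was tried on simulated arrays with shifts planted at d3 and d10 and the same Gaussian noise for every gene. The simulation held no identical rows and no shift between arrays, so no error rate is read from it. With 1 array per day, no test was run, and precision is limited by how few arrays there are. Array medians were 128.1 to 131.8. Between any pair of arrays, 4.44% to 12.8% of rows held identical values, which gives the ties at the edge of the rule.

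The naming rule took the 20 widest margins above and the 15 widest below among genes past the filter, up to 4 genes of each of 45 lists, the genes at the edge of the rule and the muscle markers. Predicted genes, clones, receptors of smell and taste, small RNAs and antigen receptor segments were left out of it. Genes named beyond it were chosen after their values were seen. The members and lists were chosen with earlier results of these data known. Alternatives were other filters, other scalings, the mean of a gene's rows, a pseudocount of 16, other margins and leaving out each array.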

Additional observations from a re-analysis of the deposited data

How the results depend on the processing

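Under other filters and scalings the count above was 1029 to 1738, against 1270 as reported, and changed less than the count below. The count below was 342, 309 and 312 with the filter on any array, on the mean of 7 arrays and on d0 and d1, against 838 as reported, and was 2295 and 1815 with quantile normalization and equal array medians. Quantile normalization shared 792 of its 1316 genes above with the 1270 reported, 691 of its 2295 below with the 838, and 0 genes turned direction. With the 3 filters the median difference of the granule list was 1.017, 1.017 and 0.925, and that of the mitosis list 0.267 in each. The counts past a 1.2-fold margin, 33 above and 0 below, became 83 and 5 at 1.1-fold and 9 above at 1.5-fold. Leaving out each array in turn gave 2041 (without d5) to 5363 (without d3) genes above and 1212 (without d7) to 5989 (without d3) below, as a rule with fewer arrays to meet is easier to pass. At 1.2-fold the same step gave 36 to 229 above and 0 to 231 below, with 70 above without d5, 102 above and 39 below without d10, 229 above and 231 below without d3, and 2 below without d14. The granule median ranged from 0.22 without d10 to 1.115 without d3, and the slow fibre median from 0.145 without d14 to 0.358 without d10. Under the alternatives run, none of these 3 list medians changed sign. The margins of the named genes among the widest kept their sign too, but much of this was fixed in advance. Leaving out an array can only widen a margin, and another filter or minimum margin does not alter it. These genes were also picked for wide margins in the same values. No paired analysis was possible because each day has 1 array. With 1 pool per day, the precision of the values is unknown.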

Other observations

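Some stress and growth genes that were highest at d1 were also among the genes above, with small margins. Of 22 unfolded protein response genes 4 lay above (18.2%) and 0 below, against 6.37% and 4.2% of all genes. Quantile normalization gave 2 above (9.09%) and 2 below (9.09%), against 6.6% and 11.5% of all genes. The median difference was then -0.011, against 0.021 as reported. Edem1, which directs misfolded glycoproteins to degradation, had 421.1 and 423.0 at d3 and d10, against 376.4, 361.6 and 342.8 at d5, d7 and d14, with 454.4 at d1. Hsp90b1, the chaperone GRP94, had 1215.1 and 1124.6 against 1115.2, 1104.7 and 1090.7, with 1890.7 at d1. Of 36 ribosome biogenesis genes 5 lay above (13.9%) and 0 below as reported. Quantile normalization gave 2 above (5.56%) and 1 below, so the share above was less than the 6.6% of all genes. Among the 5 as reported was Nop58, a protein of small nucleolar particles, with 174.7 and 176.5 against 171.1, 148.0 and 167.4 and 279.9 at d1. Of 18 heat shock genes 1 lay above (5.56%), less than the 6.37% of all genes. It was Dnajb1, an HSP40 co-chaperone, with 136.2 and 142.5 against 113.8, 116.1 and 123.9 and 266.1 at d1. In these 4 genes the d1 value exceeded both later heights. Of 54 ribosomal protein genes 2 lay above (3.7%) and 0 below, against 6.37% of all genes above.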
